A study of Mus musculus with 24 samples.

Results

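The DNAJ family of co-chaperones was described here as the genes named Dnaja, Dnajb or Dnajc plus a number in a table of 17111 mouse genes. A total of 38 genes had such a name, and all 38 had a normalised read count of at least 1 in at least 4 of the 24 libraries. They comprised 4 genes of class A, 10 of class B and 24 of class C. All 38 were among the 16985 genes tested.

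DNAJ proteins, also called J-domain proteins or Hsp40s, bind unfolded or native client proteins, hand them to an Hsp70 chaperone and stimulate its ATPase through their J domain. Class A proteins carry a glycine and phenylalanine rich stretch and a zinc-binding region, class B proteins lack the zinc-binding region, and class C proteins share only the J domain and mostly act at 1 site in the cell, such as the mitochondrial import motor or the ribosome. In chaperone-mediated autophagy, cytosolic Hsc70 (Hspa8) and its co-chaperones bring substrate proteins to the receptor LAMP2A at the lysosome.

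The libraries came from mouse muscle stem cells, the cells that rebuild skeletal muscle after damage, from L2A-WT mice (WT) and from L2A-Pax7CreER mice (KO). In KO, a CreER recombinase driven by Pax7, a gene that marks muscle stem cells, targets Lamp2a, the Lamp2 transcript for that receptor. Muscles were uninjured (day 0) or had been injected with 50 µL of 10 µM cardiotoxin, a myotoxin, 1 or 4 days earlier. Each of the 6 groups had 4 libraries, and all carried the same batch label. The groups were WT uninjured, KO uninjured, WT at day 1, KO at day 1, WT at day 4 and KO at day 4. The labels give no age, no tamoxifen schedule and no group with CreER and intact Lamp2a, so an effect of CreER and loss of Lamp2a cannot be told apart. Nor is it stated that replicates were different mice, so p-values measure the spread between these libraries, which may be technical.

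Libraries held 11.58 to 22.47 M counted reads. The correlation of libraries within a group, across genes, was 0.852 to 0.883 at day 0, 0.968 to 0.985 at day 1 and 0.884 to 0.956 at day 4. Lamp2 is counted over all its transcripts, which leaves the loss of Lamp2a unchecked here. It stood at 509 to 870 in WT and 529 to 608 in KO libraries at day 0, and did not pass the test on any day. Pax7 was present in every library, with 46.5 to 111 in WT and 58.4 to 85.3 in KO at day 0 and 77.2 to 100.02 in WT and 28.5 to 37.0 in KO at day 1. The summed level of 10 muscle stem cell markers, Pax7 among them, overlapped between genotypes on both days. It was 2438 to 3364 in WT and 2746 to 3202 in KO at day 0. At day 1 it was 3805 to 5527 in WT and 4540 to 5837 in KO. Of the macrophage marker Lyz2, uninjured and day 1 libraries held 0.474 to 11.98, apart from 86.5 in 1 uninjured WT library, and day 4 libraries 555 to 896.

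Stretches of promoter from 7 members are shown, those in which the search found letters of heat shock elements or of an endoplasmic reticulum stress element, sites to which heat shock factors and the unfolded protein response factors bind. RefSeq promoters (GRCm38.p6) were found for 32 of the 38 members, 44 promoters in all, and the 250 bases before each start were searched on both strands. The 2-unit heat shock element was searched as GAANNTTC or TTCNNGAA, where N is any base. The 3-unit element adds a further GAA to the first or TTC to the second after 2 more bases, so it always contains a 2-unit match. The stress element was searched as CCAAT and CCACG with 9 bases between them. The matched letters are in capitals, and each stretch is written 5′ to 3′ along the gene, with up to 30 bases on each side.
Dnaja1, chr4:40722314-40722381, plus strand: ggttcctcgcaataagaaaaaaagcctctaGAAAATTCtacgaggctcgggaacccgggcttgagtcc
Dnaja4, chr9:54699439-54699544, plus strand: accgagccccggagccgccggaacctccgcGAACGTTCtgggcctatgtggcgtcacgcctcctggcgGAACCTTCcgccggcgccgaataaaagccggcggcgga
Dnajb4, chr3:152193846-152193889, minus strand: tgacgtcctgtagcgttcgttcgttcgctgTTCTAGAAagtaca
Dnajb6, chr5:29735822-29735894, plus strand: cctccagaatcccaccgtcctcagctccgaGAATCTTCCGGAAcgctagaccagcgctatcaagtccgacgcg
Dnajc3, chr14:118937797-118937875, plus strand: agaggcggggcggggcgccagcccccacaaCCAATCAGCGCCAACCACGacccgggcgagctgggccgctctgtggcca
Dnajc10, chr2:80315254-80315321, plus strand: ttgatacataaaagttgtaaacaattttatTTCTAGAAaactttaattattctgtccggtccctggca
Dnajc27, chr12:4082331-4082398, plus strand: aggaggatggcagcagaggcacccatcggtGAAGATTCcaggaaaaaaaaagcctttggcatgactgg

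The matches lie 117 to 124 bases before the start of Dnaja1, 45 to 90 bases before that of Dnaja4, 7 to 14 before that of Dnajb4, 34 to 46 before that of Dnajb6, 87 to 105 before that of Dnajc3, 175 to 182 before that of Dnajc10 and 206 to 213 before that of Dnajc27. The same Dnajb6 match begins 127 bases before another RefSeq start of that gene. Dnajb6 was the only member with the 3-unit element, which 0.466% of 32851 mouse promoters hold. The 2-unit element was present in 7 of the 44 member promoters (those of Dnaja1, Dnaja4, Dnajb4, Dnajb6, Dnajc10 and Dnajc27) and in 12.8% of all promoters. The stress element was present in Dnajc3 and in 0.113% of all promoters. A match is a description of these letters only, and which start the cells used is not known.

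Members were tested in 11 comparisons with limma on log2(value + 1), with p adjusted over all genes tested and a threshold of 0.05. In uninjured muscle, 8 members were lower and 2 higher in KO than in WT (9.75% of all genes were called in either direction, 4.93% lower and 4.82% higher). At day 1, 7 members were higher and 2 lower in KO (9.2% of all genes called, 7.12% higher and 2.08% lower). At day 4, no member passed the limma test (1.05% of all genes called, 0.53% higher and 0.524% lower), while 4 had an unadjusted p under 0.05, and edgeR and DESeq2 called 0 as well. From day 0 to day 1 the difference between KO and WT moved up for 10 members and down for 3 (11.6% of all genes called, 7.48% up and 4.1% down). From day 1 to day 4 it moved down for 3 members (3.97% of all genes called, 0.759% up and 3.21% down).

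The genotypes did not overlap for 8 members at day 0, with KO above WT for 1 and below for 7 (6.97% of all genes, 3.23% above and 3.74% below). At day 1 they did not overlap for 17, with KO above for 11 and below for 6 (26.2% of all genes, 13.9% above and 12.3% below). At day 4 they did not overlap for 2, 1 above and 1 below (7.7% of all genes, 3.84% above and 3.86% below).

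By class, the calls fell as follows. At day 0, 2 of 4 class A members were lower (median of the log2 difference −0.98), 4 of 10 of class B (median −0.44), and in class C 2 of 24 were lower and 2 higher (median −0.22), against a median of 0 over all genes. At day 1, 2 of 4 of class A were higher (median 0.76), 3 of 10 of class B (median 0.10), and in class C 2 were higher and 2 lower (median −0.15), against −0.03 over all genes. Of all genes, 4.93% were lower and 4.82% higher at day 0, and 7.12% higher and 2.08% lower at day 1. Whether the classes differ from each other was not tested.

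The counts at days 0 and 1 rested on the shared estimate of spread over all 24 libraries. Fitted on the 8 libraries of day 0 alone, 2 members were called, Dnaja1 and Dnajb1 (0.4% of all genes called). Fitted on those of day 1 alone, 17 were called, 12 higher and 5 lower (23.3% of all genes called). Leaving out 1 library gave 8 to 12 calls at day 0 (9.19% to 10.6% of all genes called). At day 1 the 9 calls became 4 without WT replicate 2 or 3 or KO replicate 4. They became 5 without WT replicate 4 or KO replicate 1 or 2. In these day 1 fits 6.62% to 7.42% of all genes were called. Under all alternatives and left-out libraries, Dnaja1 and Dnajb1 remained lower at day 0, and Dnaja1, Dnajb4 and Dnajb9 remained higher at day 1.

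**Figure D1:**
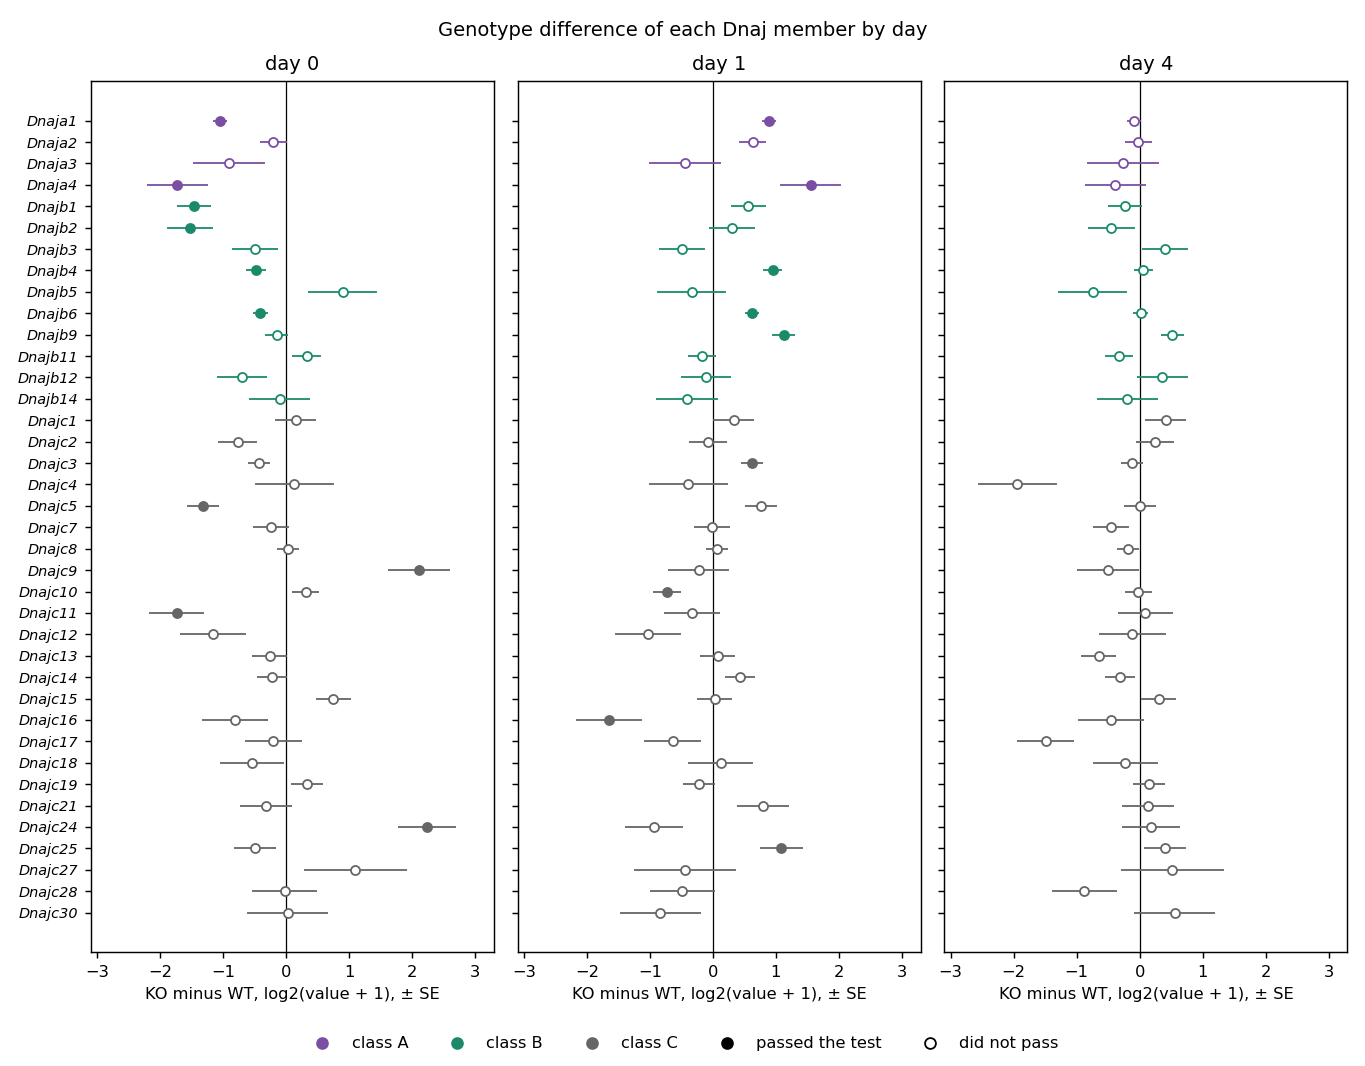
The KO minus WT difference of each of the 38 members on the log2(value + 1) scale, ± SE, at day 0, day 1 and day 4, with 4 libraries per genotype and day. Filled points passed the test. At day 0 the filled points are 8 below and 2 above 0, at day 1 they are 7 above and 2 below, and at day 4 there is none.

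Genes of other cells and of dissociation stress moved with the same comparisons, and in bulk samples fewer cells of a type and less RNA per cell cannot be told apart. The summed level of 6 fibro-adipogenic markers was 479 to 881 in WT and 1423 to 1752 in KO at day 0, with 2 of 6 higher and Pdgfra at 0 counts in all 4 WT libraries, and 154 to 248 against 306 to 637 at day 1, with 2 of 6 higher. The 7 myofibre markers tested summed to 4.29 to 9.58 in WT and 27.4 to 71.3 in KO at day 0, with 2 of 7 higher, Myh1 at 0 in WT and Myh4 at 0 in KO, and to 149 to 208 against 13.2 to 47.1 at day 1, with 6 of 7 lower. The 5 smooth muscle and pericyte markers summed to 83.3 to 181 in WT and 252 to 666 in KO at day 0, with 1 of 5 higher, and to 187 to 258 against 268 to 376 at day 1, where the groups did not overlap. The 12 immediate early genes, which cell isolation can induce, summed to 2265 to 2385 in WT and 2570 to 3191 in KO at day 0, with 1 higher and 1 lower, and to 3048 to 4049 against 1853 to 2435 at day 1, with 1 higher and 6 lower. Of 10 macrophage markers, 0 passed the limma test between genotypes on any day (9.75%, 9.2% and 1.05% of all genes called at days 0, 1 and 4). The part of these cells and of dissociation in the differences of the DNAJ members was not tested.

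The members of classes A and B in the cytosol and nucleus, which feed clients to Hspa8 and the stress-inducible Hsp70s, are described first. Of these 8 members, 6 were lower in KO at day 0 (median −0.76, with 4.93% of all genes lower), 4 were higher in KO at day 1 (median 0.63, with 7.12% of all genes higher), and for 6 the difference moved up between the days (median 1.63, with 7.48% of all genes up). In WT, 7 of the 8 were lower at day 4 than at day 0 (median −1.92, with 18.9% of all genes lower).

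Dnaja1, a farnesylated class A co-chaperone that also acts in import of proteins into mitochondria, showed the smallest p at day 0 among the members. Its normalised read counts at day 0 were 1648, 1942, 1880 and 2070 in WT and 966, 838, 819 and 1011 in KO. At day 1 they were 662, 655, 578 and 676 in WT and 1355, 1105, 1068 and 1252 in KO. At day 4 they were 169, 223, 164 and 202 in WT and 181, 193, 158 and 174 in KO. The 2 genotypes did not overlap at day 0 or day 1, in opposite directions, and overlapped at day 4. Dnaja1 was lower in KO by a log2 difference of −1.05 ± 0.11 (SE) at day 0 (adjusted p = 1.13e-06) and higher by 0.89 ± 0.11 at day 1 (adjusted p = 4.63e-06). The difference moved by 1.94 ± 0.16 between these days (adjusted p = 9.41e-09) and by −0.98 ± 0.16 from day 1 to day 4 (adjusted p = 0.000333). In WT it fell by 1.55 ± 0.11 to day 1 and by a further 1.76 ± 0.11 to day 4. In KO it rose by 0.39 ± 0.11 to day 1 (adjusted p = 0.00539), a rise that turned to −0.04 under quantile normalization, and then fell by 2.75 ± 0.11. Dnaja1 has exons that overlap those of Smu1 on the opposite strand and a named pseudogene, Dnaja1-ps, so its counts are uncertain to the extent that reads were shared.

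Dnajb1, the stress-inducible Hsp40 that works with Hsp70 and Hsp110 in protein disaggregation, stood at 210, 398, 341 and 240 in WT and 101, 92.7, 128 and 97.6 in KO at day 0. Day 1 values were 188, 199, 225 and 190 in WT and 278, 299, 319 and 292 in KO. At day 4 it stood at 24.1, 25.3, 24.4 and 30.4 in WT and 12.4, 16.8, 52.4 and 20.6 in KO. WT and KO did not overlap at day 0 or day 1, but the day 1 difference did not pass the test in the fit over all 24 libraries. With library weights and with only the groups compared, Dnajb1 was called higher in KO at day 1. Dnajb1 was lower in KO by −1.46 ± 0.27 at day 0 (adjusted p = 0.00113), and the day 1 value was 0.57 ± 0.27 (adjusted p = 0.263). From day 0 to day 1 the difference moved up by 2.03 ± 0.39 (adjusted p = 0.000952). In KO it rose by 1.51 ± 0.27 to day 1, while the WT value was −0.52 ± 0.27 (adjusted p = 0.113), and to day 4 it fell by 2.90 ± 0.27 in WT and by 3.70 ± 0.27 in KO.

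Dnaja4, a cytosolic class A member known to be induced by heat, was measured at lower counts and with more spread. Its values were 32.8, 72.8, 34.0 and 43.4 in WT and 24.1, 23.5, 8.58 and 4.52 in KO at day 0. At day 1 they were 10.9, 10.0, 9.31 and 5.83 in WT and 16.4, 22.1, 29.96 and 55.2 in KO. At day 4 they were 6.52, 5.41, 9.97 and 6.87 in WT and 3.26, 12.7, 6.80 and 2.11 in KO. Every KO library was below every WT library at day 0 and above every one at day 1. The difference was −1.73 ± 0.48 at day 0 (adjusted p = 0.0242) and 1.56 ± 0.48 at day 1 (adjusted p = 0.0428), a move of 3.28 ± 0.69 (adjusted p = 0.00223). The day 0 call was lost with edgeR, with library weights and with only the groups compared. It was also lost without WT replicate 2 (−1.48) or KO replicate 3 (−1.56) or 4 (−1.30). The day 1 call was lost without any library of that day except KO replicate 1 (1.24 to 1.67), under quantile normalization and without a trend. The move between days was called under every alternative run. Dnaja4 fell in WT by 2.18 ± 0.48 to day 1, and its KO value over the same interval was 1.11 ± 0.48 (adjusted p = 0.0659).

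Dnajb4, a cytosolic class B member expressed in muscle, and Dnajb6, a suppressor of protein aggregation whose mutations cause a limb-girdle muscular dystrophy, followed the same order of groups at day 0 and day 1. Dnajb4 stood at 738, 906, 981 and 809 in WT and 505, 695, 678 and 594 in KO at day 0, and at 192, 200, 162 and 201 in WT and 375, 334, 447 and 318 in KO at day 1. Dnajb6 stood at 255, 282, 309 and 292 in WT and 185, 220, 226 and 226 in KO at day 0, and at 221, 208, 221 and 201 in WT and 335, 323, 318 and 334 in KO at day 1. For both genes the genotypes did not overlap on either day. At day 4 they overlapped, with Dnajb4 at 111 to 137 in WT and 102 to 175 in KO and Dnajb6 at 109 to 144 in WT and 117 to 145 in KO.

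At day 0 the difference was small for both, −0.48 ± 0.15 for Dnajb4 (adjusted p = 0.0499) and −0.41 ± 0.12 for Dnajb6 (adjusted p = 0.0258). The Dnajb4 call was lost in 12 of 19 alternatives, among them the fits without WT replicate 2, 3 or 4 or KO replicate 1 or 4 (−0.50 to −0.38). The Dnajb6 call was lost in 7 of 19, without WT replicate 3 (−0.37) or 4 (−0.40) or KO replicate 1 (−0.34). Its other losses were under quantile normalization, without a trend, with library weights and with only the groups compared. At day 1 Dnajb4 was higher by 0.95 ± 0.15 (adjusted p = 0.000136) and Dnajb6 by 0.62 ± 0.12 (adjusted p = 0.000713, and 0.141 under quantile normalization). The difference moved up by 1.43 ± 0.22 for Dnajb4 and 1.03 ± 0.16 for Dnajb6 to day 1, and down by 0.89 ± 0.22 and 0.61 ± 0.16 to day 4. The move of Dnajb4 to day 4 was lost under quantile normalization (−0.59, adjusted p = 0.232) and without a trend (adjusted p = 0.0894), and that of Dnajb6 in 13 of 27 alternatives. In KO, Dnajb4 fell by 0.75 ± 0.15 and Dnajb6 rose by 0.61 ± 0.12 from day 0 to day 1, a rise that was 0.205 and not called under quantile normalization (adjusted p = 0.191).

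Dnajb2, which carries ubiquitin-interacting motifs and sorts clients towards the proteasome, was lower in KO at day 0. Its values were 20.3, 27.0, 12.8 and 16.2 in WT and 9.79, 5.04, 3.34 and 6.26 in KO, with no overlap. The difference was −1.53 ± 0.37 (adjusted p = 0.00936), a call lost with library weights and with only the groups compared. It moved up by 1.83 ± 0.52 to day 1 (adjusted p = 0.0227, and 0.0523 under quantile normalization). At day 1 the values were 15.8 to 21.9 in WT and 18.5 to 25.8 in KO, which overlap, with a difference of 0.30 ± 0.37 (adjusted p = 0.815). Dnaja2, the other widely expressed class A co-chaperone of the cytosol, stood at 160 to 305 in WT and 126 to 293 in KO at day 0 and at 273 to 301 in WT and 381 to 485 in KO at day 1. Its day 1 groups did not overlap, but its difference of 0.63 ± 0.21 did not pass (adjusted p = 0.0666), while it did with a stricter filter (adjusted p = 0.0434), with library weights and with only the groups compared (adjusted p = 0.00185). At day 0 its difference was −0.20 ± 0.21, and 0.03 without KO replicate 4. The last of the 8, Dnajb5, had 0.139 to 8.79 in all libraries, and its genotypes overlapped on every day.

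**Figure D2:**
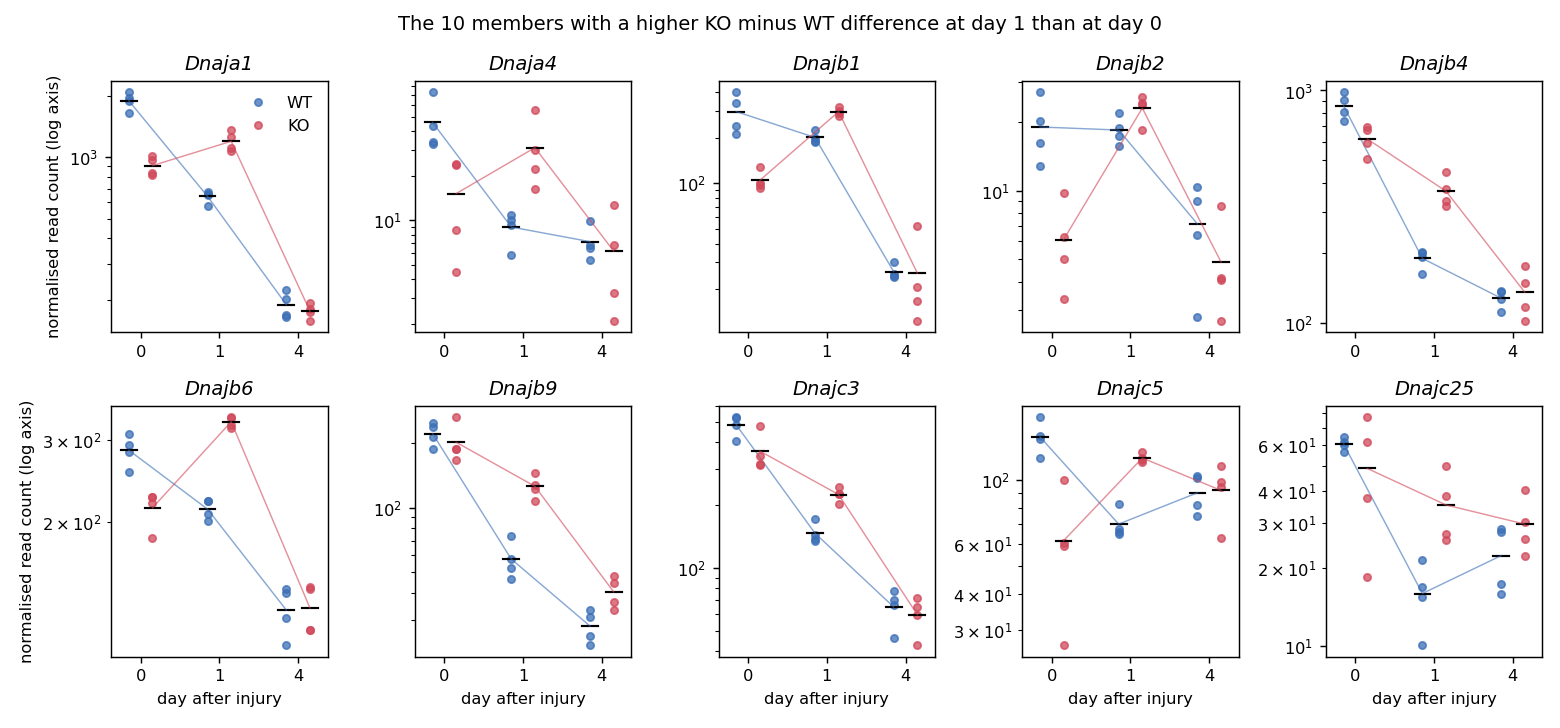
Normalised read counts, on log axes, of the 10 members whose KO minus WT difference moved up from day 0 to day 1, by day after injury. Points are the 4 libraries of each group and horizontal bars their means. Dnaja1 stands at 1648 to 2070 in WT and 819 to 1011 in KO at day 0, at 578 to 676 in WT and 1068 to 1355 in KO at day 1, and overlaps between genotypes at day 4.

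Members of the endoplasmic reticulum assist the Hsp70 Hspa5 (BiP) or sit in the reticulum membrane. At day 0 limma did not call any of these 10 members (9.75% of all genes called), although Dnajc3 had an unadjusted p under 0.05. At day 1, 3 of the 10 were higher in KO and 2 lower (7.12% of all genes higher and 2.08% lower). Dnajb9, a target of the unfolded protein response that restrains the sensor IRE1, stood at 188, 213, 236 and 248 in WT and 264, 188, 166 and 188 in KO at day 0. Its day 1 values were 46.5, 57.5, 52.5 and 73.7 in WT and 127, 122, 146 and 108 in KO. At day 4 it stood at 22.8, 30.8, 33.4 and 25.3 in WT and 33.4, 36.2, 47.8 and 44.5 in KO. The genotypes overlapped at day 0 and were apart at day 1. At day 4 they did not overlap, but the highest WT and the lowest KO library both rounded to 33.4. Dnajb9 was higher in KO by 1.13 ± 0.18 at day 1 (adjusted p = 0.000145), and the difference moved by 1.27 ± 0.26 from day 0 (adjusted p = 0.0017), where it was −0.15 ± 0.18. It fell in both genotypes, by 1.94 ± 0.18 in WT and 0.66 ± 0.18 in KO to day 1, and by 1.01 ± 0.18 and 1.62 ± 0.18 after it.

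Dnajc3, an inhibitor of the eIF2α kinase PERK and a BiP co-chaperone, stood at 409, 529, 522 and 483 in WT and 481, 316, 346 and 313 in KO at day 0. At day 1 it stood at 171, 137, 144 and 135 in WT and 244, 227, 204 and 226 in KO, with no overlap. It was higher in KO at day 1 by 0.62 ± 0.17 (adjusted p = 0.0245), and the difference moved by 1.05 ± 0.25 (adjusted p = 0.00607, and 0.0964 under quantile normalization). The day 1 call was lost without any library of that day except WT replicate 1 or KO replicate 3 (0.58 to 0.61), and also under quantile normalization, without a trend and with DESeq2. Dnajc25, a membrane protein of this group, stood at 21.5, 15.5, 10.1 and 16.9 in WT and 38.2, 27.2, 25.8 and 49.6 in KO at day 1. Its difference was 1.09 ± 0.34 (adjusted p = 0.043) and was likewise lost without any library except WT replicate 1 or KO replicate 3 (0.90 to 1.19), and under quantile normalization and without a trend. Its move from day 0, 1.58 ± 0.48 (adjusted p = 0.0323), was lost in 11 of 27 alternatives, among them quantile normalization, edgeR and DESeq2. Exons of Dnajc25 overlap those of Gm20503 on the same strand. In WT, Dnajc3 fell by 1.72 ± 0.17 and Dnajc25 by 1.90 ± 0.34 from day 0 to day 1.

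Dnajc10, a reductase of the reticulum that opens disulfide bonds before degradation, went the other way. At day 1 it stood at 96.0, 126, 128 and 126 in WT and 63.4, 86.5, 88.9 and 51.7 in KO, and every KO library was below every WT library. It was lower in KO by −0.73 ± 0.22 (adjusted p = 0.0332), a call that remained without WT replicate 1 or KO replicate 2 or 3 and was lost without any other library (−0.70 to −0.58) and without a trend. Its difference moved down by 1.04 ± 0.31 from day 0 (adjusted p = 0.0278), a call lost in 10 of 27 alternatives. Dnajc16, a membrane protein, was lower at day 1 by −1.65 ± 0.52 (adjusted p = 0.0466), with 6.17, 2.87, 9.96 and 2.44 in WT and 0.194, 0.408, 1.96 and 1.15 in KO. Its call remained without WT replicate 4 or KO replicate 3 and was lost without any other library (−1.84 to −1.34). The Dnajc16 call was also lost under quantile normalization (−1.45), with a pseudocount of 0.5 (−2.02), with a replicate block, with edgeR (−2.56, adjusted p = 0.217) and with DESeq2 (−2.70, adjusted p = 0.0682). Dnajb11, a soluble co-chaperone of BiP, and Dnajb12, a membrane member that acts in degradation, rose in both genotypes at day 1, Dnajb11 by 1.995 ± 0.23 in WT and 1.49 ± 0.23 in KO and Dnajb12 by 2.32 ± 0.40 and 2.92 ± 0.40.

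Of the 7 members of the mitochondrion, 5 rose from day 0 to day 1 in WT (median 1.48, with 27.7% of all genes up). In KO 5 rose (median 2.33, with 24.2% of all genes up). From day 1 to day 4, 4 fell in each genotype (22.6% of all genes down in WT and 23.4% in KO). In WT, 14 of the 38 members rose to day 1 and 11 fell (52.6% of all genes called, 27.7% up and 24.9% down), and in KO 19 rose and 4 fell (45.6% of all genes called, 24.2% up and 21.5% down). Dnaja3, the mitochondrial class A member, stood at 2.79, 4.05, 18.7 and 1.83 in WT at day 0, 51.7, 70.2, 99.7 and 54.6 at day 1 and 7.83, 15.9, 13.1 and 10.9 at day 4. It rose by 3.57 ± 0.57 to day 1 in WT and 4.03 ± 0.57 in KO, and by 4.16 in WT without replicate 3 of day 0 and 4.69 in KO without replicate 4 of day 0. Exons of Dnaja3 overlap those of Vasn on the same strand and of Coro7 on the opposite strand. Dnajc15, which regulates the import motor, stood at 5.95 to 8.36 in WT at day 0 and 61.0 to 88.9 at day 1, a rise of 3.24 ± 0.28. Dnajc30, a factor of respiratory chain repair, rose by 3.19 ± 0.64 in WT and 2.33 ± 0.64 in KO, and by 3.98 without WT replicate 2 and 2.92 without KO replicate 3 of day 0. With edgeR neither of these rises of Dnajc30 was called (adjusted p = 0.0917 in WT and 0.156 in KO), and with DESeq2 the KO rise was not (adjusted p = 0.118). Dnajc19, a subunit of the import motor, rose by 1.34 ± 0.25 in WT and by 0.78 ± 0.25 in KO (0.41 without KO replicate 2 of day 0, where the call was lost, as it was under quantile normalization, with only the groups compared and with DESeq2).

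Between genotypes, 1 of the 7 mitochondrial members was called, at day 0 (9.75% of all genes called). Dnajc11, a protein of the cristae-organising complex, stood at 24.4, 47.1, 13.97 and 35.5 in WT and 2.82, 27.9, 10.8 and 3.15 in KO at day 0, and the groups overlapped. The difference was −1.74 ± 0.44 (adjusted p = 0.0128), and −2.32 without KO replicate 2. It was −1.35 without KO replicate 1, where the call was lost, as it was with edgeR, with library weights and with only the groups compared. At day 1 Dnajc11 stood at 65.4 to 101 in WT and 50.1 to 78.9 in KO. The changes over time in KO and WT were 2.84 ± 0.44 and 1.44 ± 0.44, and their difference did not pass the test. Under alternatives, Dnajc30 was called lower in KO at day 1 with library weights and with only the groups compared. Dnajc15 was called higher in KO at day 0 with DESeq2.

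The list headed ribosome, nucleus and spliceosome also holds Dnajc7 and Dnajc24, described below by other roles. Of its 7 members, 6 rose and 1 fell to day 1 in WT (27.7% of all genes up and 24.9% down). In KO 5 rose (24.2% of all genes up). Dnajc9, a histone chaperone that brings Hsp70 to histones, had the largest rise in WT among the 38 members. It stood at 3.61, 3.25, 7.43 and 0.233 in WT and 36.9, 12.9, 25.5 and 4.16 in KO at day 0, and at 122, 108, 105 and 106 in WT and 78.8, 104, 102 and 93.9 in KO at day 1. At day 0 the groups overlapped in 1 library, the KO replicate at 4.16. Dnajc9 was higher in KO by 2.12 ± 0.49 at day 0 (adjusted p = 0.00687), a call lost with only the groups compared (adjusted p = 0.363). It rose to day 1 by 4.88 ± 0.49 in WT and 2.54 ± 0.49 in KO. The difference between these rises was −2.34 ± 0.69 (adjusted p = 0.028). It was −1.80 without WT replicate 4 and −1.94 without KO replicate 1 of day 0, where the call was lost. The call was also lost without KO replicate 3 of day 0 or replicate 1 of either genotype at day 1 (−2.29 to −2.11), and with only the groups compared.

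Dnajc24, a factor of diphthamide synthesis on elongation factor eEF2, stood at 0.0344, 0.912, 4.12 and 3.16 in WT and 4.74, 18.9, 20.01 and 7.81 in KO at day 0. Day 1 values were 28.8, 25.2, 19.3 and 28.8 in WT and 11.7, 15.7, 10.2 and 13.9 in KO. The groups did not overlap on either day, with KO above WT first and below it afterwards. Of all genes, 6.97% did not overlap at day 0 and 26.2% at day 1. The day 1 difference did not pass the test in the fit over all 24 libraries. It was called lower with library weights and with only the groups compared. At day 0 the difference was 2.24 ± 0.46 (adjusted p = 0.00264), a call lost with library weights and with only the groups compared (adjusted p up to 0.278). From day 0 to day 1 it moved by −3.18 ± 0.65 (adjusted p = 0.00197). The lowest WT value is that of a library with 0 counts. Dnajc24 rose in WT by 3.36 ± 0.46 to day 1 and fell by 2.18 ± 0.46 to day 4. The ribosome-associated Dnajc2 rose by 2.22 ± 0.30 in WT and 2.91 ± 0.30 in KO, Dnajc7, which links Hsp70 and Hsp90, by 1.49 ± 0.28 and 1.72 ± 0.28, and the splicing factor Dnajc8 by 1.03 ± 0.18 and 1.07 ± 0.18. The member that fell in WT was Dnajc21, a factor of large ribosomal subunit maturation, by 1.26 ± 0.41.

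Dnajc5, the cysteine string protein of secretory vesicles, was the member of the vesicle group that differed between genotypes. It stood at 142, 166, 139 and 119 in WT and 26.4, 58.9, 99.9 and 60.4 in KO at day 0, at 64.7, 65.8, 82.8 and 67.5 in WT and 116, 125, 119 and 118 in KO at day 1, and at 74.9 to 103 in WT and 62.9 to 112 in KO at day 4. The groups were apart at days 0 and 1 in opposite directions and overlapped at day 4. The difference was −1.33 ± 0.25 at day 0 (adjusted p = 0.00144), a call lost with only the groups compared (adjusted p = 0.179). At day 1 it was 0.77 ± 0.25, which did not pass (adjusted p = 0.0625). The day 1 difference did pass with a stricter filter, a pseudocount of 5, library weights and only the groups compared. From day 0 to day 1 the difference moved by 2.09 ± 0.36 (adjusted p = 0.000341): to day 1, Dnajc5 fell by 1.00 ± 0.25 in WT and rose by 1.09 ± 0.25 in KO. The endosomal Dnajc13 stood at 27.4 to 76.3 in WT and 29.6 to 60.9 in KO at day 0, and Dnajc27 at 0.0365 to 28.9 in WT and 4.28 to 25.0 in KO. Of the other 3 members, Dnajb3 and Dnajc12 had few counts, with Dnajb3 at 0 counts in all 4 uninjured KO libraries and Dnajc12 at 0 to 1, and Dnajc14 was not called between genotypes in the fit over all 24 libraries, but was higher in KO at day 1 with library weights and with only the groups compared. The mitochondrial Dnajc28 had 0 to 1 counts in all 8 uninjured libraries.

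Over the whole family, the day of the highest mean differed between members. In WT, 15 members had it at day 0, 19 at day 1 and 4 at day 4, and in KO 9, 23 and 6. Among all genes the shares were 35.1%, 32.3% and 32.6% in WT and 31.7%, 31.3% and 37.0% in KO. From day 1 to day 4, 19 members fell and 2 rose in WT (50.4% of all genes called, 22.6% down and 27.8% up), with a median of −0.91 against 0.22 over all genes. In KO 20 fell and 2 rose over this interval (49.6% of all genes called, 23.4% down and 26.2% up), with a median of −1.15 against 0.18.

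Relative to uninjured cells, at day 4 12 members were lower and 8 higher in WT (44.6% of all genes called, 18.9% lower and 25.7% higher). The split was 9 and 4 under quantile normalization (43.9% of all genes called), 12 and 4 with edgeR (35%) and 11 and 4 with DESeq2 (39.8%). In KO 9 were lower and 10 higher (40.5% of all genes called, 18.2% lower and 22.3% higher). The members with the largest falls in WT were Dnajb1 (−3.42 ± 0.27), Dnaja1 (−3.31 ± 0.11), Dnajb9 (−2.94 ± 0.18), Dnajc3 (−2.90 ± 0.17) and Dnajb4 (−2.74 ± 0.15). These 5 were also lower in KO, by −2.20 ± 0.27, −2.35 ± 0.11, −2.28 ± 0.18, −2.59 ± 0.17 and −2.20 ± 0.15. Dnajc9 (3.04 ± 0.49) and Dnajc15 (1.73 ± 0.28) were the members of the higher set with the smallest adjusted p in WT. For Dnajb4 the part of the fall from day 1 to day 4 in WT, −0.56 ± 0.15, turned to 0.33 under quantile normalization, and for Dnajb6 the KO difference between day 4 and day 0, −0.71 ± 0.12, turned to 0.04. The 12 immediate early genes were all lower at day 4 than at day 0 in WT (18.9% of all genes lower). The summed level of the 10 macrophage markers was 1091 to 1519 in WT and 947 to 1058 in KO at day 4, against 6.99 to 112 before. The summed level of the 10 muscle stem cell markers was 2438 to 3364 in WT at day 0 and 1102 to 1258 at day 4, with 7 of 10 lower (18.9% of all genes lower). The part of these shifts in the falls of DNAJ members was not tested.

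**Figure D3:**
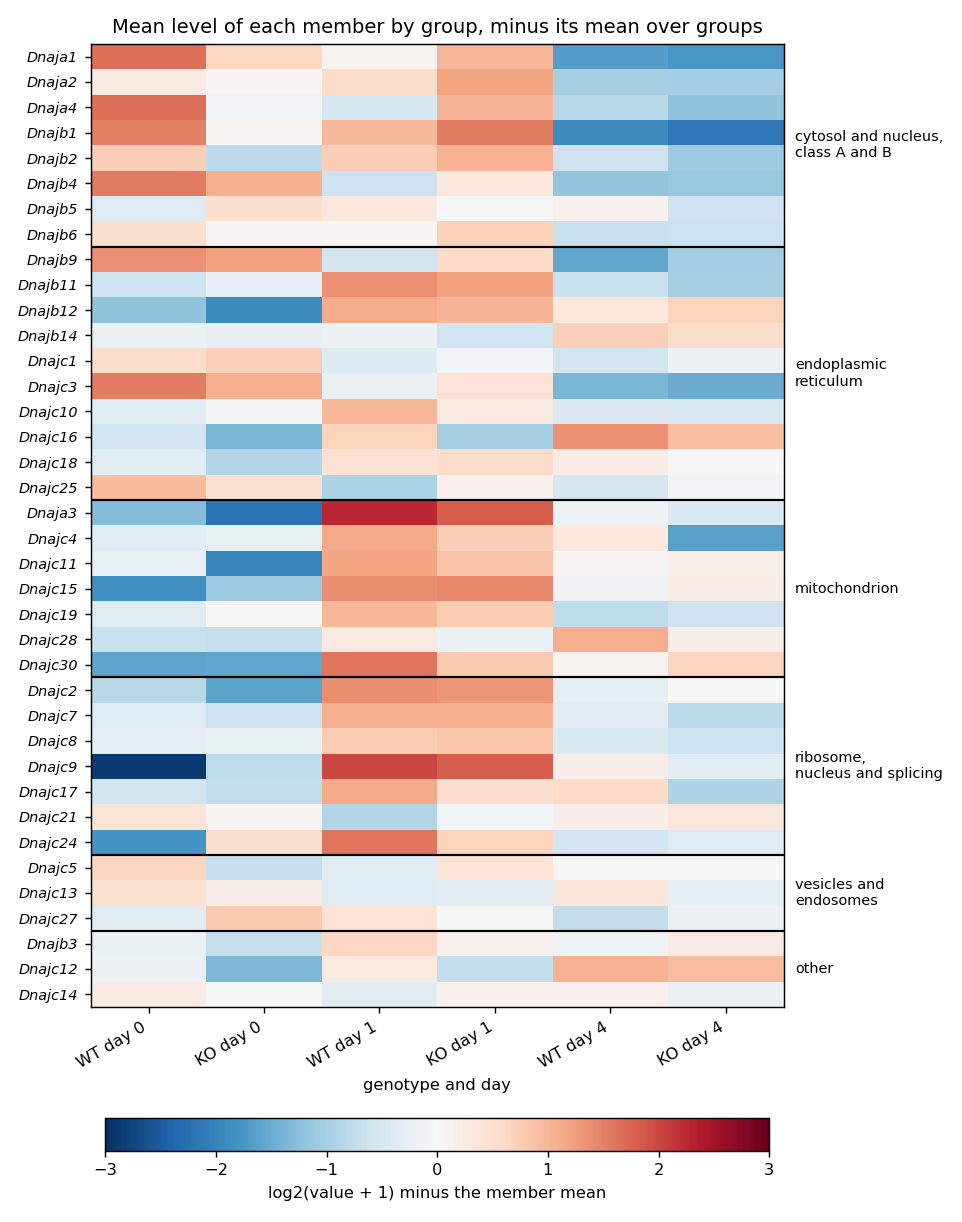
Mean log2(value + 1) of each of the 38 members in each group of 4 libraries, minus its mean over the 6 groups, ordered by the lists of site or role used in the text. Members listed under mitochondrion and under ribosome, nucleus and spliceosome are mostly highest at day 1 in both genotypes, while Dnaja1, Dnaja4 and Dnajb4 are highest in WT at day 0.

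At day 4 the differences between genotypes ranged from −1.95 to 0.56 over the 38 members. The 4 members with an unadjusted p under 0.05, named after their values were seen, were Dnajc4 (−1.95 ± 0.63, adjusted p = 0.198), Dnajc17 (−1.49 ± 0.45, adjusted p = 0.157), Dnajc13 (−0.65 ± 0.28, adjusted p = 0.447) and Dnajb9 (0.52 ± 0.18, adjusted p = 0.279). Dnajc17, a splicing-associated member, stood at 5.62, 4.55, 5.26 and 8.94 in WT and 1.30, 1.93, 0.444 and 2.76 in KO, and these groups did not overlap. A difference that does not pass this test does not show that the genotypes were alike.

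The partners of the DNAJ proteins were taken as a list of 30 Hsp70s, Hsp110s, nucleotide exchange factors and other factors, of which 29 were tested. At day 0, 10 were lower and 0 higher in KO (median −0.43, against 0 over all genes, of which 4.93% were lower and 4.82% higher). At day 1, 8 were higher and 0 lower (median 0.46, against −0.03 over all genes, of which 7.12% were higher and 2.08% lower), and the difference moved up for 12 (median 0.67, with 7.48% of all genes up). The stress-inducible Hsp70 Hspa1b stood at 2515, 2372, 1941 and 2148 in WT and 490, 550, 633 and 532 in KO at day 0, and at 119, 129, 221 and 113 in WT and 830, 817, 1312 and 659 in KO at day 1. Its difference was −2.02 ± 0.27 and then 2.64 ± 0.27, and that of its near-identical copy Hspa1a −2.30 ± 0.28 and 2.52 ± 0.28, so reads may have been split between them. The Hsp110 exchange factor Hsph1 differed by −1.50 ± 0.17 and 1.66 ± 0.17, and the exchange factor Bag3 by −0.87 ± 0.20 and 0.70 ± 0.20. The Bag3 call at day 0 was lost with library weights (adjusted p = 0.245). The Bag3 call at day 1 was lost without WT replicate 1 (0.66), 2 (0.69) or 4 (0.59) or KO replicate 3 (0.60), and also under quantile normalization (0.40), without a trend and with DESeq2.

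Hspa8, the constitutive partner of the cytosolic members, was lower in KO at day 0 by −0.60 ± 0.12, with overlapping groups at 5299 to 9363 in WT and 4227 to 5756 in KO. This Hspa8 call was lost under quantile normalization (−0.31, adjusted p = 0.502) and with only the groups compared (adjusted p = 0.278). At day 1 it was higher by 0.80 ± 0.12, with 4781 to 5160 in WT and 8152 to 9702 in KO, but this turned to −0.12 under quantile normalization (adjusted p = 0.919). Hspa5, the partner in the endoplasmic reticulum, was higher at day 1 by 0.63 ± 0.14, but 0.20 under quantile normalization (adjusted p = 0.782), and its day 0 value of −0.30 ± 0.14 did not pass (adjusted p = 0.2). Hspa9, the partner in mitochondria, was lower at day 0 by −0.43 ± 0.12, a call lost without WT replicate 3 (−0.41) or KO replicate 3 (−0.32), under quantile normalization (−0.29), without a trend, with library weights and with only the groups compared. At day 1 it stood at 785 to 1086 in WT and 821 to 1054 in KO. Of 5 J-domain genes outside the naming pattern that were tested, 1 was higher at day 0 (4.82% of all genes higher). At day 1, 1 was higher and 1 lower (7.12% of all genes higher and 2.08% lower).

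**Figure D4:**
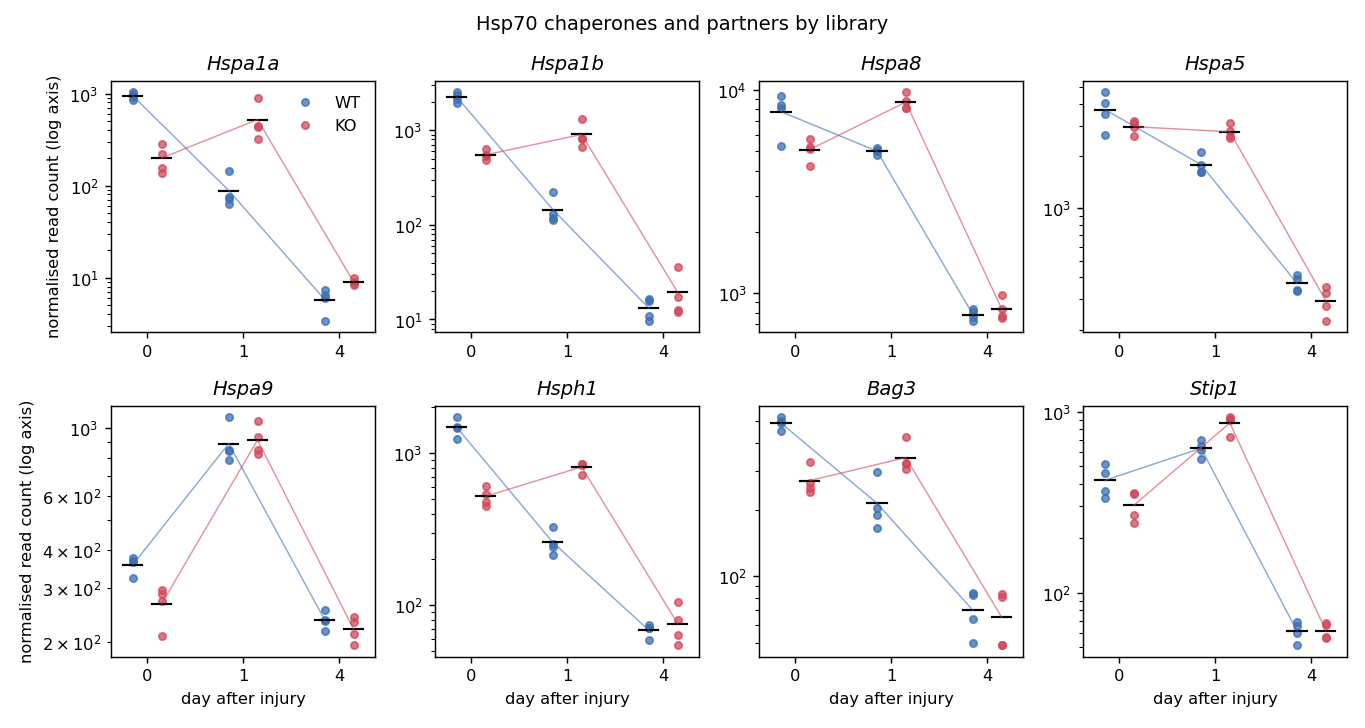
Normalised read counts, on log axes, of 8 Hsp70 chaperones and partners by day after injury, with the 4 libraries of each group as points and their means as bars. Hspa1b lies at 1941 to 2515 in WT and 490 to 633 in KO at day 0 and at 113 to 221 in WT and 659 to 1312 in KO at day 1, and Hspa9 overlaps between genotypes at day 1.

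Against the promoter stretches shown above, the 2-unit heat shock letters were present in 4 of the 9 members with a promoter whose genotype difference moved up from day 0 to day 1 (Dnaja1, Dnaja4, Dnajb4 and Dnajb6), in 1 of 3 whose difference moved down (Dnajc10) and in 1 of 20 that were not called (Dnajc27). By promoter, 7 of the 44 member promoters held these letters, against 12.8% of all promoters. The counts above are by gene, and a gene can have more than 1 promoter, so that share does not apply to them. These counts were not tested. Exons of 15 members overlap another gene, 14 of them on the opposite strand, and whether the counting used strand is not given in the sources used here. Some of these members also, or only, overlap a gene on the same strand: Dnaja1 (Mir207), Dnaja3 (Vasn), Dnajb14 (Gm15460), Dnajc14 (Sarnp) and Dnajc25 (Gm20503).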

How the data were processed

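Per the labels' protocols, the 24 libraries of muscle stem cell RNA were SMART-Seq v4 libraries. Reads were handled with FastQC, STAR, RSEM and limma on build mm39, per the submitters' processing notes; versions and strand are not given in the sources used here. The deposited table holds a normalised signal made by the authors. Multiplied back by its library's scale, each value gave a whole number of reads after 0.5 was taken off (100% of values, tolerance 0.02), so counts were recovered for edgeR and DESeq2. A floor of 3 counts corresponds to 0.145 to 0.32; floors cover counting error only.

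A gene entered the test if 4 or more libraries reached 1. Testing used limma 3.58.1 (R 4.3.3) on log2(value + 1), which understates changes of low genes, in 1 model of 6 group means with a mean-variance trend, two-sided, adjusted by Benjamini-Hochberg over 16985 genes. The script was tested on simulated data. Alternatives were 2 other filters, 2 other pseudocounts (0.5 and 5), quantile normalization, no trend, library weights, only the groups compared, a replicate block, edgeR 4.0.16, DESeq2 1.42.0 and each library left out. Up to 8 members in each direction, with a mean of at least 4 in the higher group, were to be named per comparison, beside 8 fixed members. Members and lists were chosen with earlier results of these data known. Promoters came from RefSeq (GRCm38.p6) and exon overlaps from GENCODE on GRCm38, a build that differs from that of the counts.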

Additional observations from a re-analysis of the deposited data

Results flagged for a closer look

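Outlying libraries were looked for only in members that the naming rule above picked in some comparison, not in the whole family. In 13 of 157 groups of 4 libraries with a mean of at least 4, 1 library stood apart from the other 3 by Dixon's criterion, which chance meets in about 1 of 20 groups. These were Dnaja3 at 18.7 in WT replicate 3 and Dnajb11 at 34.2 in WT replicate 1 and Dnajc19 at 49.9 in WT replicate 4 of day 0, and Dnajb6 at 185 in KO replicate 1 of day 0. At day 1 they were Dnajb12 at 17.2 in KO replicate 3, Dnajc5 at 82.8 in WT replicate 3, and Dnajc9 at 122 and Dnajc10 at 96.0 in WT replicate 1. At day 4 they were Dnajb12 at 18.1 in WT replicate 2 and 30.5 in KO replicate 1, Dnajc10 at 50.1 in WT replicate 3, Dnajc11 at 46.7 in KO replicate 3 and Dnajc12 at 13.9 in KO replicate 2.

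The genotype difference itself differed between days 0 and 1, by the limma interaction test, for 13 members (11.6% of all genes called, 7.48% up and 4.1% down). It moved up for Dnaja4 (3.28), Dnajc5 (2.09), Dnajb1 (2.03), Dnaja1 (1.94), Dnajb2 (1.83), Dnajc25 (1.58), Dnajb4 (1.43), Dnajb9 (1.27), Dnajc3 (1.05) and Dnajb6 (1.03), and down for Dnajc24 (−3.18), Dnajc9 (−2.34) and Dnajc10 (−1.04). Of these, Dnajc25 lost its call in 11 of 27 alternatives, Dnajc10 in 10, Dnajc9 in 6, and Dnajb2 and Dnajc3 in 1. Between days 1 and 4 the genotype difference moved down for Dnaja1 (−0.98), Dnajb4 (−0.89) and Dnajb6 (−0.61). Of all genes, 3.97% were called for this change, 0.759% up and 3.21% down. The call was lost in 2 of 27 alternatives for Dnajb4 and 13 for Dnajb6.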

How the results depend on the processing

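The number of members called at day 0 was 10 (9.75% of all genes called), but 4 with library weights (1.82%) and 2 with only the groups compared (0.4%). At day 1 it was 9 (9.2%), but 4 under quantile normalization (5.86%) and 5 without a trend (8.07%). It was 17 with library weights (29%) and 17 with only the groups compared (23.3%). For WT at day 4 against day 0, 20 (44.6%) became 13 under quantile normalization (43.9%). For the change of the difference from day 1 to day 4, 3 (3.97%) became 1 under quantile normalization (2.94%) and without a trend (2.9%). That number was 6 with library weights (9.9%) and with only the groups compared (8.97%). The cause was not tested. With 1 library left out, the calls between genotypes ran from 8 to 12 at day 0, 4 to 8 at day 1 and 0 to 1 at day 4. The shares of all genes called ran from 9.19% to 10.6%, 6.62% to 7.87% and 0.689% to 1.2%. The calls over time in WT ran from 25 to 28 (day 1 against 0), 18 to 22 (day 4 against 1) and 16 to 19 (day 4 against 0), and in KO from 20 to 24, 22 to 22 and 16 to 19. Of all genes, 48.2% to 51.5%, 45.2% to 46.1% and 39.6% to 43.6% were called in WT. In KO these shares were 40.9% to 44.6%, 44.8% to 47.2% and 36.9% to 39.1%. The calls for the change of the difference ran from 10 to 15 (9.16% to 12.6% of all genes) and from 2 to 3 (2.96% to 3.85%). Values that turned sign were Dnaja2 at day 0 (−0.380 to 0.026 with 1 library left out, the highest without KO replicate 4), and under quantile normalization Hspa8 at day 1 (−0.116), Dnajb4 in WT from day 1 to 4 (0.327), Dnaja1 in KO from day 0 to 1 (−0.040) and Dnajb6 in KO from day 0 to 4 (0.044). Scaling moved the median of all genes by over 0.1 in some comparisons over time: in KO from day 1 to 4 it was 0.18, and 0.57 with DESeq2. Between genotypes at day 1 it was −0.03, and −0.17 with DESeq2. For the change of the difference from day 0 to 1 it was −0.004, and −0.12 with DESeq2. For that from day 1 to 4 it was −0.03, and 0.15 with DESeq2. With the replicate number as a replicate block, 9 members were called at day 0, with Dnajb4 lost, and 9 at day 1, where Dnaja2 was gained (adjusted p = 0.0357) and Dnajc16 lost (adjusted p = 0.0588). The change of the difference of Dnaja2 to day 1 was also gained (adjusted p = 0.0452). Of 60 correlations of same-numbered libraries, 1 was over 0.1, that of replicate 3 in WT and KO at day 1 (0.27). The same number was the best match in 18 of the 60, mostly for replicate 3. Whether libraries of the same number belong together was not tested further.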
